A study of Mus musculus with 20 samples.

Results

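The transforming growth factor beta (TGF-beta) pathway was followed in mouse microglia, the resident macrophages of the brain, through 10 genes: Tgfb1, Tgfbr1, Tgfbr2, Bambi, Smad2, Smad3, Smad7, Skil, Nrros and Ski. They were chosen with earlier results of these data known and taken by symbol from the 55487 gene identifiers of the deposited count table. All 10 were among the 16595 genes that passed the filter on low counts. Bulk RNA-seq had been made from 20 libraries of 10 mice, each mouse giving a cortex-labelled and a brainstem-labelled library. The mutant mice carried Cx3cr1CreER, a tamoxifen-inducible Cre at a gene expressed by microglia and their progenitors, with Braf LSL-V600E, in which Cre switches on the oncogenic kinase BRAF V600E. Pregnant females received one injection of 37.5 mg/kg of 4-hydroxytamoxifen at embryonic day 9.5, so recombination was limited to cells with an active Cx3cr1 locus around that day and to their descendants.

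At 2 months of age there were 3 mutant mice (Braf VE; CX3 HET; M2617, M2621 and M2624) and 3 controls (Braf WT; CX3 HET; M2618, M2629 and M2633). At end-stage, for which no age was given, there were 2 mutants (Braf VE; CX3 HET; M1376 and M1524) and 2 controls. The end-stage controls were not alike: M1375 was Braf VE; CX3 WT, the Braf allele without Cre, and M1521 was Braf WT; CX3 HET, Cre without the Braf allele. How the microglia were isolated is not given in the sources used here.

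Several checks bear on the labels. The 2-month genotype was read by the mouse number in the name of the sequencing column. In 5 of the 6 2-month mice the sample record's title carried another mouse number, and in 4 of them the record gave the other genotype. Counts per gene do not show the V600E base change and so do not check these genotypes. Library totals ran from 9395203 to 21171114 counts. Defining microglial genes (Tmem119, P2ry12, Sall1, Csf1r and Fcrls) summed to between 15500 and 38500 CPM in every library, CPM being a gene's count scaled to the library's total. The 12 Hox genes that pattern the hindbrain were low throughout. Their sum was the larger in the cortex-labelled library of 9 of 10 mice (median 2.08 against 0.606 CPM), opposite to the region labels. Single genes were split. Hoxb5 reached 1.85 CPM under the cortex label and 0.0731 CPM under the brainstem label. Hoxb2 reached 0.109 and 0.217 CPM, and Hoxd3 and Hoxd4 were found only under the brainstem label (at most 0.0731 and 0.0555 CPM). Whether microglia carry the Hox genes of their region was not tested, so these sums do not settle the labels. Genes of the developing cortex did not separate the labels, with the cortex-labelled library above its partner for 5 of 10 mice. The libraries are therefore called cortex-labelled and brainstem-labelled.

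TGF-beta1, the product of Tgfb1, is secreted in a latent complex. NRROS, encoded by Nrros, tethers that complex to the surface of microglia, where integrins release the ligand. The ligand joins the type II receptor TGFBR2 to the type I receptor TGFBR1, which phosphorylates SMAD2 and SMAD3. SMAD7 inhibits the receptors, SKI and SKIL repress the targets of the SMAD complex, and BAMBI is a pseudoreceptor that resembles a type I receptor but lacks the kinase. In the brain this signal is known to be needed for the mature, homeostatic state of microglia.

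Members differed widely in level in the control libraries. Levels are given as CPM per kilobase of exon (mean ± SD over n = 10 control libraries of 5 mice). Nrros stood at 133 ± 22.1 and Tgfbr1 at 104 ± 21.1, and their ranges overlapped. Tgfb1 (63.4 ± 9.22) and Tgfbr2 (52.1 ± 9.01) followed, also overlapping each other, and Tgfb1's highest library (78.2) lay just under Tgfbr1's lowest (78.5). The intracellular members were lower: Ski 25.8 ± 3.32, Smad7 14.8 ± 1.82, Smad3 12.9 ± 2.22, Smad2 8.2 ± 0.991 and Skil 8.0 ± 1.09 CPM per kilobase. In that order Smad7 overlapped Smad3, Smad3 overlapped Smad2 and Smad2 overlapped Skil, whereas Ski overlapped neither Tgfbr2 nor Smad7. Bambi was lowest at 0.861 ± 0.595, and its highest control library (2.31) was under the lowest of every other member. The latent-ligand tether, the receptors and the ligand were thus the abundant transcripts of the 10, and the pseudoreceptor the rare one.

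**Figure D1:**
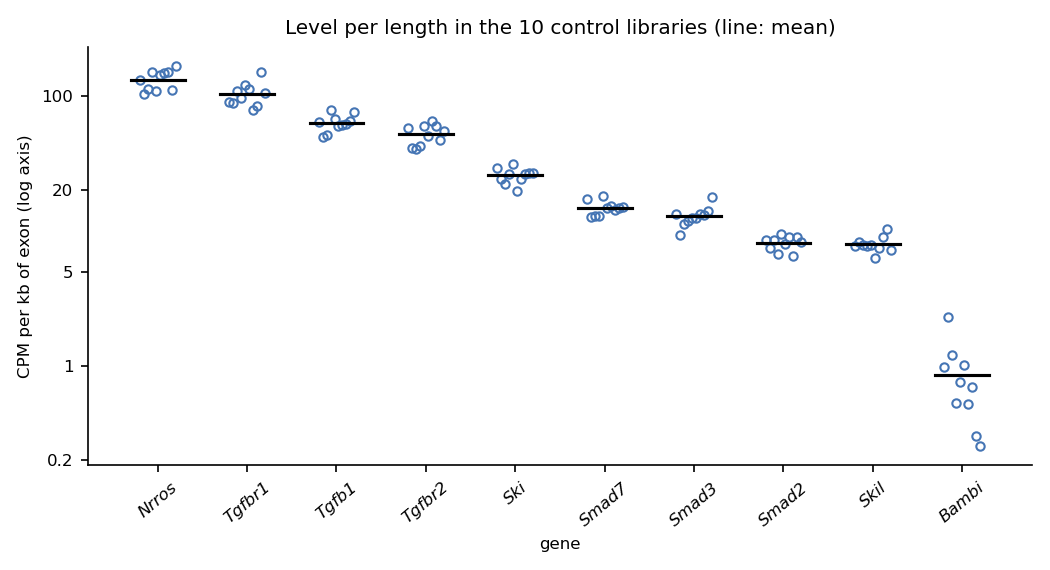
Level of each gene per exon length in the 10 control libraries (y axis, CPM per kilobase, log scale; circles are libraries, lines are means). Nrros and Tgfbr1 are highest (means 133 and 104) and Bambi lowest (0.861), with neighbouring genes overlapping at most steps.

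Over all 20 libraries 9 of the 10 genes stayed within a narrow range. Their highest library was between 1.6 (Ski) and 2.72 (Tgfbr2) times their lowest on the CPM scale. Bambi ranged over 47.3-fold, from 1.3 to 61.3 CPM, or 25 to 1124 counts. The low end of Bambi therefore rests on few reads.

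Bambi rose in the end-stage cortex-labelled mutants. It was at 61.3 CPM in mutant M1376 and 43.1 CPM in mutant M1524, against 2.65 CPM in control M1375 and 3.56 CPM in control M1521. Both mutant libraries were more than 10 times above both controls, and also above each of the other 16 libraries, none of which passed 11.7 CPM. The difference was 4.06 ± 0.48 (log2, SE), or 16.7-fold (adjusted p = 0.000131, edgeR quasi-likelihood test with Benjamini-Hochberg adjustment over all genes tested). It kept its call in 13 of 13 alternative analyses, with a log2 difference of 3.79 to 4.3 and an adjusted p of 6.8e-16 to 0.00903, including 4.06 (adjusted p = 0.00523) with the end-stage libraries alone. There were 2 mice a group. The spread behind the main p-value was estimated over all 20 libraries in 8 groups, with the 2 libraries of a mouse taken as separate. Fitting only the groups compared, edgeR gave 4.07 (adjusted p = 0.00477). In bulk samples a change in the share of cells that carry a transcript and a change in RNA per cell cannot be told apart.

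Marker genes of other cell types, and immediate early and stress genes, moved beside Bambi in these libraries. Their part in the result was not tested. The 4 markers of oligodendrocyte precursors summed to 37.3 to 88.1 CPM in the mutants against 3.18 to 5.75 CPM in the controls. Nearly all of the sum in the mutants was Cspg4 (37.0 to 87.8 CPM, against 0.212 to 1.16 CPM in controls), while Pdgfra was at most 0.273 CPM, Olig1 at most 0.325 CPM and Olig2 at 0.0 in the mutants. The 8 border-associated macrophage markers summed to 58.6 to 278 CPM against 22.8 to 28.1 CPM. Siglec1 (28.8 to 218 CPM in mutants, 3.28 to 7.25 CPM in controls) and Ms4a7 (17.7 to 45.9 against 2.94 to 5.08 CPM) made up most of the mutants' sum. Cd163 was higher in the mutants (1.36 to 2.54 against 0.635 to 1.23 CPM) and Cbr2 lower (1.25 to 3.64 against 4.52 to 6.78 CPM). The groups overlapped for Mrc1 (2.4 to 3.64 against 2.86 to 3.42 CPM), Lyve1, Pf4 and F13a1. Endothelial and pericyte markers (7 genes) summed to 36.5 to 61.0 against 24.5 to 38.0 CPM, with the defining endothelial gene Cldn5 at 0 in both groups. Within this sum Flt1 was at 18 to 31.4 CPM in the mutants against 0.0 to 0.847 CPM and Kdr at 7.79 to 17.2 against 1.69 to 1.71 CPM, both VEGF receptors, while the adhesion molecule Pecam1 was at 6.05 to 9.76 against 12.9 to 34.5 CPM. The microglial list summed to 15500 to 21700 CPM in the mutants and 24100 to 26100 CPM in the controls. The B-cell list was also lower in the mutants (275 to 279 against 766 to 842 CPM), as was the neuronal list (1.56 to 3.11 against 9.0 to 18.2 CPM). The astrocyte list overlapped (9.21 to 34.3 against 11.5 to 14.2 CPM). Within it Gfap (2.51 to 11.4 against 0.0684 to 0.318 CPM) and Aldh1l1 (3.87 to 19.6 against 3.7 to 3.81 CPM) were higher and Aldoc lower (2.34 to 2.73 against 7.31 to 8.49 CPM). Immediate early and stress genes (10 genes) summed to 1350 to 1540 CPM against 1110 to 1210 CPM, and within them Dusp1 was at 52 to 65.9 CPM against 8.68 to 8.76 CPM. Egr1 was at 159 to 161 CPM in the mutants against 3.63 to 7.2 CPM, and Fos at 14.9 to 20.9 against 0.0 to 0.847 CPM. Atf3 was at 78.3 to 123 against 24.7 to 36.6 CPM and Ier2 at 105 to 118 against 44.3 to 46.5 CPM. Jun was lower in the mutants (62.8 to 63.4 against 133 to 183 CPM). The groups overlapped for Junb (424 to 727 against 453 to 642 CPM) and Zfp36 (338 to 376 against 350 to 371 CPM). They also overlapped for Hspa1a (0.0 to 0.195 against 0.0 to 0.953 CPM) and Hspa1b (0.6 to 1.5 against 0.205 to 2.22 CPM).

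**Figure D2:**
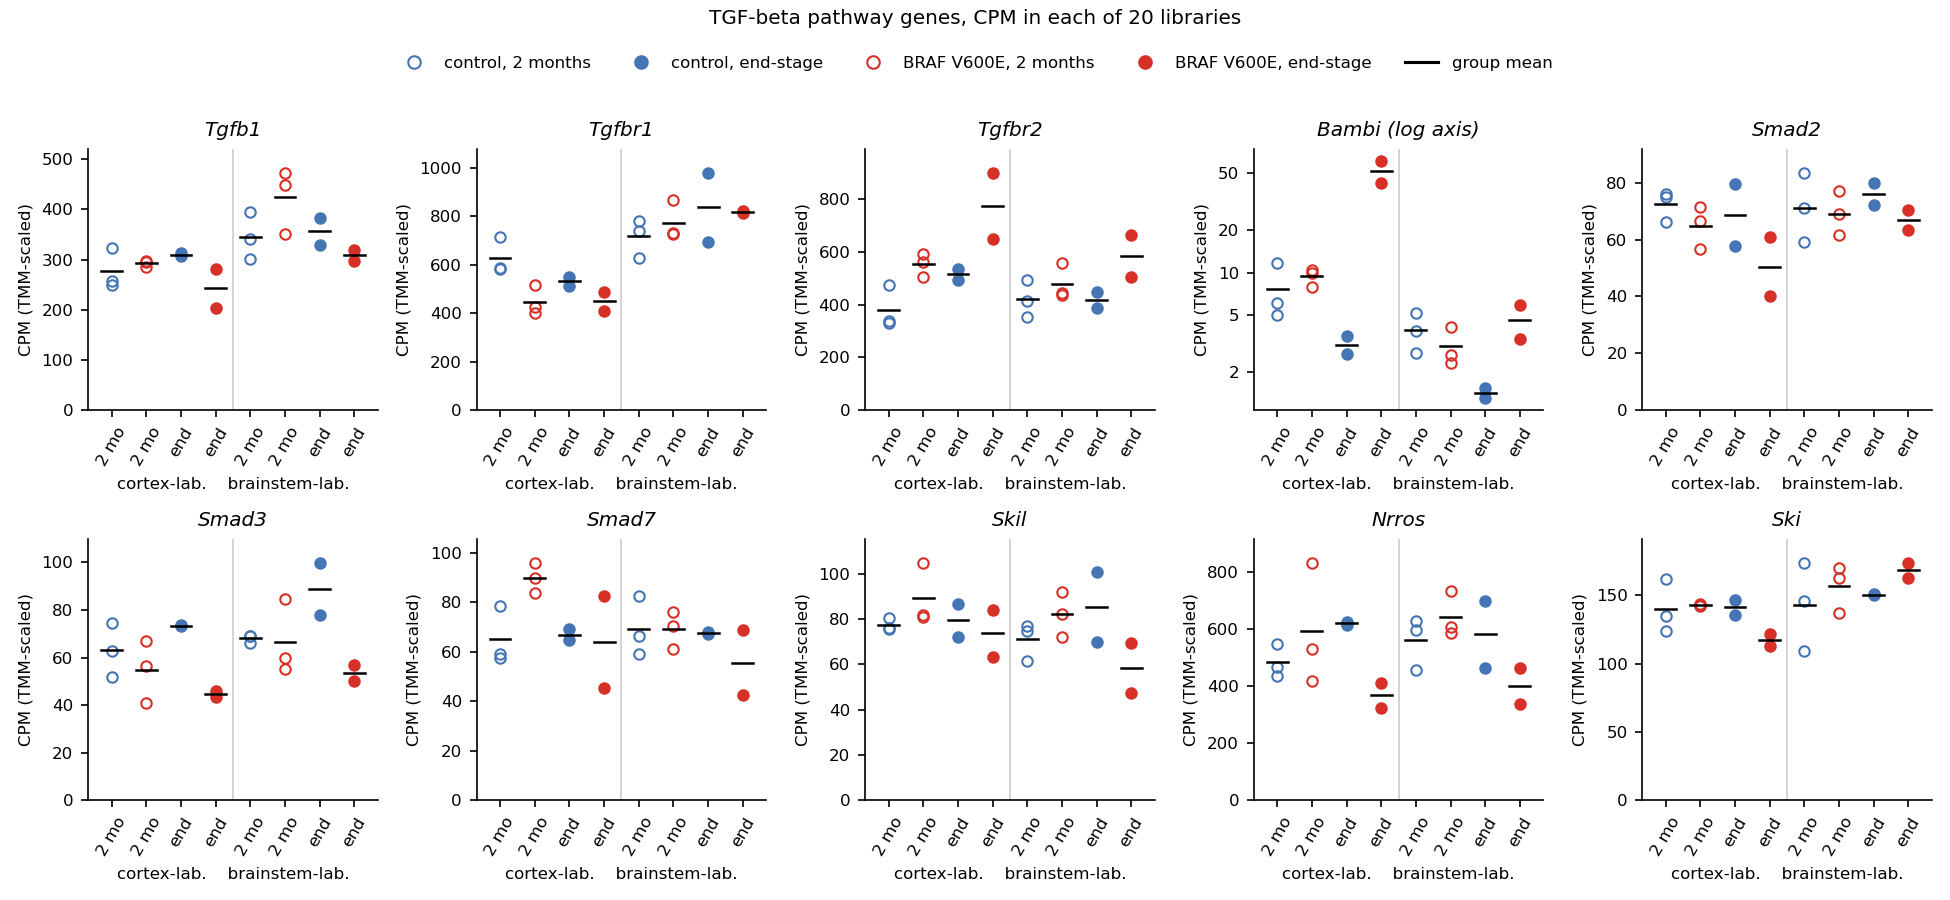
CPM of the 10 genes in each library (y axis, scaled by TMM factors; Bambi on a log axis, the others from 0), by region label, stage and genotype, with lines at group means. Bambi stands at 43.1 and 61.3 CPM in the end-stage cortex-labelled mutants and at most 11.7 CPM elsewhere.

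No other gene of the 10 passed in the end-stage cortex-labelled libraries, where 4.01% of all genes did. The ligand and its tether were lower in both mutants without passing. Nrros was at 325 and 411 CPM in mutants M1376 and M1524 and at 616 and 625 CPM in the controls (log2 difference -0.75 ± 0.28, adjusted p = 0.155). Tgfb1 was at 203 and 282 CPM against 307 and 313 CPM (-0.35 ± 0.19, adjusted p = 0.35).
The 2 receptors had differences of opposite sign. Tgfbr2 was at 649 and 900 CPM in the mutants and 536 and 494 CPM in controls M1375 and M1521 (0.59 ± 0.22, adjusted p = 0.166), and Tgfbr1 at 489 and 410 CPM against 513 and 549 CPM (-0.24 ± 0.19, adjusted p = 0.54). Among the signal transducers Smad3 was at 43.2 and 45.7 CPM against 73.7 and 73.1 CPM (-0.72 ± 0.24, adjusted p = 0.108), and Smad2 gave -0.44 ± 0.22 (adjusted p = 0.311). The inhibitor Smad7 and the co-repressors Skil and Ski had log2 differences of -0.06, -0.11 and -0.26. In all, mutants and controls did not overlap for 7 of the 10 genes, with Tgfbr2 and Bambi above and Tgfb1, Tgfbr1, Smad3, Nrros and Ski below, where 49.1% of all genes did not overlap between 2 and 2 mice. The median log2 difference of the 10 was -0.25, against 0.02 for all genes.

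The end-stage brainstem-labelled libraries showed a smaller Bambi difference that did not pass. Bambi was at 5.88 CPM in mutant M1376 and 3.41 CPM in mutant M1524, against 1.53 and 1.3 CPM in the controls, so the groups did not overlap. The log2 difference was 1.71 ± 0.46 (3.28-fold, edgeR adjusted p = 0.13). DESeq2 called it (1.72, adjusted p = 0.0218), as did edgeR without a filter on low counts (1.72, adjusted p = 0.0291). The difference between the regions in Bambi's genotype effect was -2.35 ± 0.63 (log2, brainstem-labelled minus cortex-labelled), with an adjusted p of 0.322. Bambi was the 1 member with an unadjusted p under 0.05 in that test, where 882 of all 16595 genes had one. Neither DESeq2 nor limma-voom called a member. Few genes passed here at all: 0.151% in the brainstem-labelled genotype comparison and 0.0844% in the test of genotype by region.

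The remaining 9 genes did not pass in those brainstem-labelled libraries by edgeR, DESeq2 or limma-voom. At an unadjusted p under 0.05 edgeR held 4 of the 10, and 1731 of all 16595 genes. Smad3 was at 50.2 and 57 CPM in the mutants against 77.9 and 99.9 CPM in the controls (-0.73 ± 0.24, adjusted p = 0.236), Tgfbr2 at 505 and 663 CPM against 386 and 449 CPM (0.49 ± 0.22, adjusted p = 0.459), and Skil at 47.3 and 69.7 CPM against 101 and 70 CPM (-0.55 ± 0.23, adjusted p = 0.398). Groups did not overlap for 8 of the 10 genes, with Tgfbr2, Bambi and Ski above and Tgfb1, Smad2, Smad3, Skil and Nrros below, against 39.0% of all genes. Tgfbr2 and Smad3 had nearly the same sizes of difference as in the cortex-labelled libraries of the same mice.

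At 2 months none of the 10 genes passed in edgeR in either region. In the cortex-labelled libraries the receptors came nearest. Tgfbr1 was at 401, 427 and 515 CPM in the mutants M2617, M2621 and M2624 and at 587, 583 and 712 CPM in the controls M2618, M2629 and M2633. The groups did not overlap, and the log2 difference was -0.49 ± 0.15 (adjusted p = 0.0713). Tgfbr2 ran the other way, at 591, 505 and 560 CPM in the mutants against 475, 336 and 331 CPM (0.54 ± 0.18, adjusted p = 0.0977). DESeq2 called both (adjusted p = 0.0266 for Tgfbr1 and 0.0383 for Tgfbr2), limma-voom neither, and leaving out control M2618 brought Tgfbr2 to 0.72 (adjusted p = 0.0345). The type I receptor was thus lower and the type II receptor higher in all 3 mutants. Marker genes of other cells, and some immediate early genes, moved beside these receptors, and their part in the result was not tested. The B-cell list was lower in the mutants (423 to 633 against 656 to 766 CPM), with Ighm overlapping. Egr1 (40.4 to 139 against 7.61 to 20.2 CPM), Ier2 (57.6 to 134 against 22 to 36 CPM) and Fos (3.6 to 9.12 against 0.132 to 2.75 CPM) were higher. The 10 early and stress genes summed to 933 to 1560 against 884 to 1070 CPM, so these sums overlapped. The 6 monocyte markers summed to 59.7 to 101 CPM in the mutants against 1.09 to 6.26 CPM in the controls, nearly all of it Plac8 (57.5 to 97.9 against 0.601 to 1.98 CPM), while Ly6c2 was at most 1.13 CPM and Chil3 at most 0.618 CPM. Border macrophage markers summed to 68.7 to 116 CPM against 2.79 to 32.4 CPM, mostly Siglec1 (64.8 to 109 against 1.15 to 4.46 CPM), with Lyve1 at 0 in the mutants. The endothelial and pericyte list summed to 66.4 to 74 CPM against 22 to 35.1 CPM. Most of it in the mutants was Pecam1 (34.1 to 54.5 against 19.1 to 28.4 CPM) and Kdr (10.5 to 20.4 against 1.2 to 3.01 CPM). Flt1 was also higher (3.36 to 6.74 against 0.0 to 0.601 CPM). Cldn5 was at most 0.41 CPM and Rgs5 at 0.0 in the mutants, and the groups overlapped for Cdh5 and Pdgfrb.

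Bambi, so high at end-stage, was at 9.9, 10.4 and 7.93 CPM in the 2-month cortex-labelled mutants and at 5.03, 11.7 and 6.08 CPM in the controls. The groups overlapped (0.3 ± 0.34, adjusted p = 0.704). Smad7, the inhibitory SMAD, was at 83.5, 95.9 and 89.9 CPM in the mutants against 78.5, 57.3 and 58.9 CPM (0.47 ± 0.22, adjusted p = 0.238). Of the 10 genes 3 had an unadjusted p under 0.05, as did 3254 of all 16595 genes. The groups did not overlap for 4 of the 10 (Tgfbr2, Smad7 and Skil above, Tgfbr1 below). Of all genes 24.7% did not overlap and 5.45% passed. With the genotype that the sample record gives, the Tgfbr1 and Tgfbr2 values were 0.36 and -0.07, and 1 gene in all passed in place of 904.

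In the 2-month brainstem-labelled libraries all 10 genes overlapped between genotypes, against 13.7% of all genes without overlap, and the log2 differences ran from -0.37 (Bambi) to 0.3 (Tgfb1). No member reached an unadjusted p under 0.05 in edgeR, where 1461 of all 16595 genes did, and no member passed in DESeq2 or limma-voom. Tgfb1 was at 473, 351 and 448 CPM in the mutants and 394, 340 and 301 CPM in the controls (0.3 ± 0.16, adjusted p = 0.623). Of all genes 0.0362% passed. The test of genotype by region at 2 months called no member either (0.0241% of all genes). Tgfbr1 alone of the members had an unadjusted p under 0.05 in it (0.6 ± 0.21, adjusted p = 0.449), as did 1381 of all 16595 genes. DESeq2 and limma-voom called no member.

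**Figure D3:**
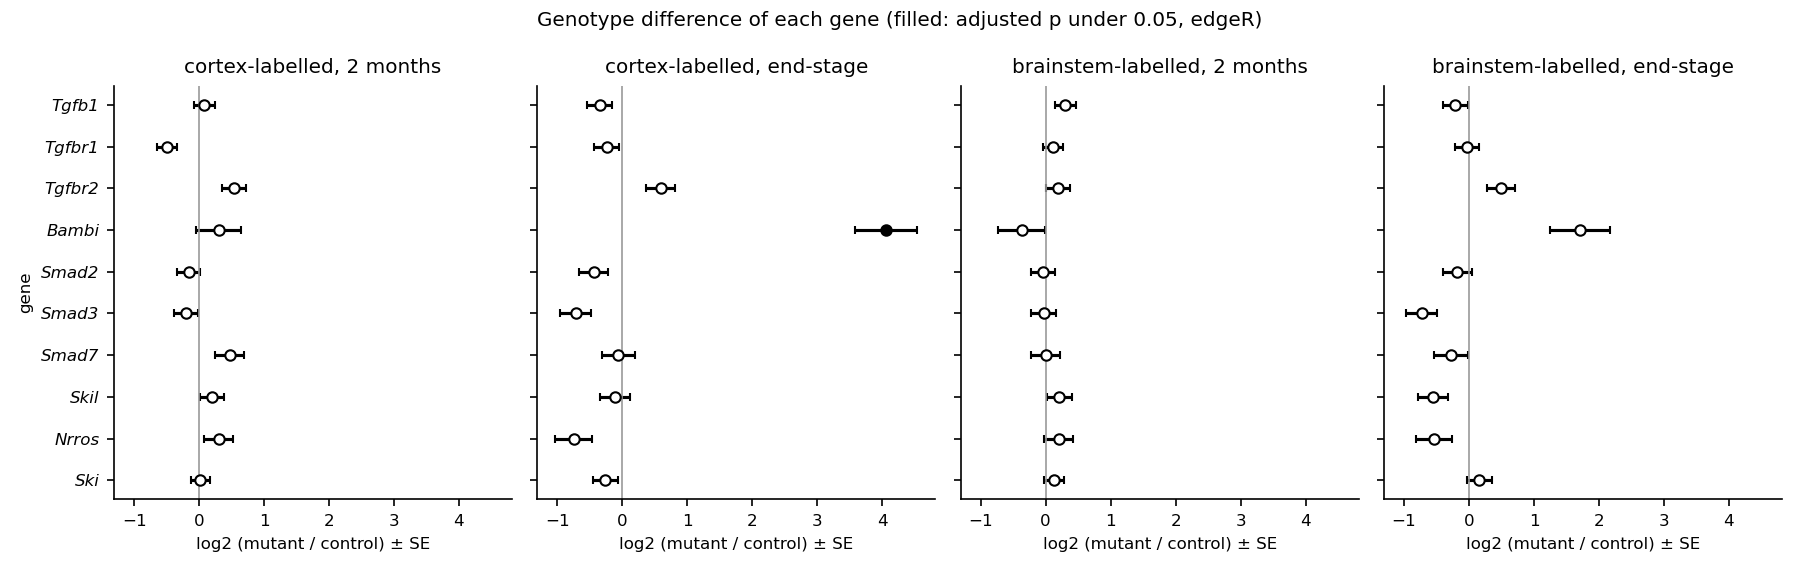
Log2 difference of mutant over control (x axis) with its SE for each gene in the 4 genotype comparisons, filled where the adjusted p was under 0.05. Bambi in end-stage cortex-labelled libraries (4.06 ± 0.48) is the filled point; Tgfbr2 lies above 0 in all 4 panels and passes in none.

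The Bambi effect differed between stages. In cortex-labelled libraries the genotype difference was larger at end-stage than at 2 months by 3.76 ± 0.57 on the log2 scale (adjusted p = 0.00698), where 0.265% of all genes passed. It was lost without the end-stage control M1375 (3.56, adjusted p = 0.091). It was also lost without the 4 2-month mice whose genotype differs between the labels, which leaves 1 2-month mouse per genotype, assumed to vary like the other groups (4.62, adjusted p = 0.138). With the record's genotypes it was 4.81 (adjusted p = 0.00173). In the brainstem-labelled libraries the same difference was 2.08 ± 0.58 (adjusted p = 0.786). There 0.00603% of all genes passed, and no member did by edgeR, DESeq2 or limma-voom. An unadjusted p under 0.05 was found for 3 members and for 733 of all 16595 genes.

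Among cortex-labelled mutants alone, Bambi was 5.54-fold higher at end-stage than at 2 months (log2 2.47 ± 0.38, adjusted p = 0.00236, 1.84% of all genes called). Without the 4 mice of conflicting genotype it was 2.72 (adjusted p = 0.0976). In the controls it was lower at end-stage, without passing: 2.65 and 3.56 CPM against 5.03 to 11.7 CPM in cortex-labelled libraries (-1.29 ± 0.42, adjusted p = 0.5), and 1.53 and 1.3 CPM against 2.71 to 5.2 CPM in brainstem-labelled ones (-1.47 ± 0.43, adjusted p = 0.498). The end-stage controls therefore had the lowest Bambi levels in both regions, and the genotype comparison at end-stage is made against them.

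No other member passed between stages. In brainstem-labelled mutants 0.0422% of all genes passed, and no member did by edgeR, DESeq2 or limma-voom. There 1704 of all 16595 genes had an unadjusted p under 0.05, and 3 members: Tgfb1 (-0.46 ± 0.18), Skil (-0.49 ± 0.21) and Nrros (-0.69 ± 0.26). In the controls edgeR called 0.0% of all genes between stages, whether cortex-labelled or brainstem-labelled. Unadjusted p-values under 0.05 numbered 1432 and 1367 genes there, DESeq2 called 35 and 55, and limma-voom 0 and 0. Of the members, 2 in cortex-labelled controls (Bambi and Tgfbr2) and 1 in brainstem-labelled controls (Bambi) had an unadjusted p under 0.05, and DESeq2 and limma-voom called none.

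Between the region labels 3 members separated within every mouse. Bambi was higher in the cortex-labelled library and Tgfb1 and Tgfbr1 in the brainstem-labelled library in 5 of 5 control and 5 of 5 mutant mice. Of all genes 5.82% kept one direction in all 10 mice, 13.2% in all 5 controls and 26.7% in all 5 mutants. In the mutants Tgfbr2 and Smad7 joined them, with the cortex-labelled library above its partner for 5 of 5, while this held for 3 of 5 and 2 of 5 controls.

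In the mutants these 3 genes passed, where 10.4% of all genes did. The main region tests, here and in the controls, took the mean of both stages and did not pair the libraries of a mouse. Bambi's mean was 4.65 CPM in brainstem-labelled and 52.2 CPM in cortex-labelled mutants at end-stage. At 2 months these means were 3.02 and 9.41 CPM. Bambi was lower in brainstem-labelled libraries by 5.88-fold (log2 -2.55 ± 0.29, adjusted p = 3.22e-05), and kept its call in 13 of 13 alternatives. Tgfbr1 ran from 725 to 865 CPM over the 5 brainstem-labelled mutant libraries and from 401 to 515 CPM over their cortex-labelled partners. The ranges lay far apart, and the difference was 1.77-fold (0.83 ± 0.12, adjusted p = 0.000334). It was lost in 1 of 13 alternatives, without the 4 mice of conflicting genotype (0.68, adjusted p = 0.103). Tgfb1 ran from 298 to 473 CPM against 203 to 298 CPM (0.44 ± 0.12, adjusted p = 0.0294), and it kept its call in 6 of 13 alternatives. The ranges met at 298 CPM. Leaving out mutant M1376 (0.36, adjusted p = 0.226), M1524 (0.54, 0.057), M2617 (0.4, 0.095) or M2624 (0.43, 0.088) ended that call, as did the record's genotypes (0.37, 0.179), fitting only the groups compared (0.45, 0.0504) and leaving out the 4 mice of conflicting genotype (0.47, 0.249).

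The controls showed the same directions for these genes without passing, where 0.765% of all genes passed. Tgfbr1 was at 628 to 979 CPM in brainstem-labelled and 513 to 712 CPM in cortex-labelled control libraries (0.42 ± 0.12, adjusted p = 0.101), and the ranges overlapped. Bambi gave -1.05 ± 0.29 (adjusted p = 0.0983), and Tgfb1 0.26 ± 0.12 (adjusted p = 0.366). With the mouse as a block, which compares the libraries within an animal, Bambi passed (-1.02, adjusted p = 0.0432). DESeq2 called Bambi and Tgfbr1 and limma-voom neither. Bambi, Tgfbr1 and Tgfb1 were the 3 members with an unadjusted p under 0.05 in edgeR, where 2260 of all 16595 genes had one.

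**Figure D4:**
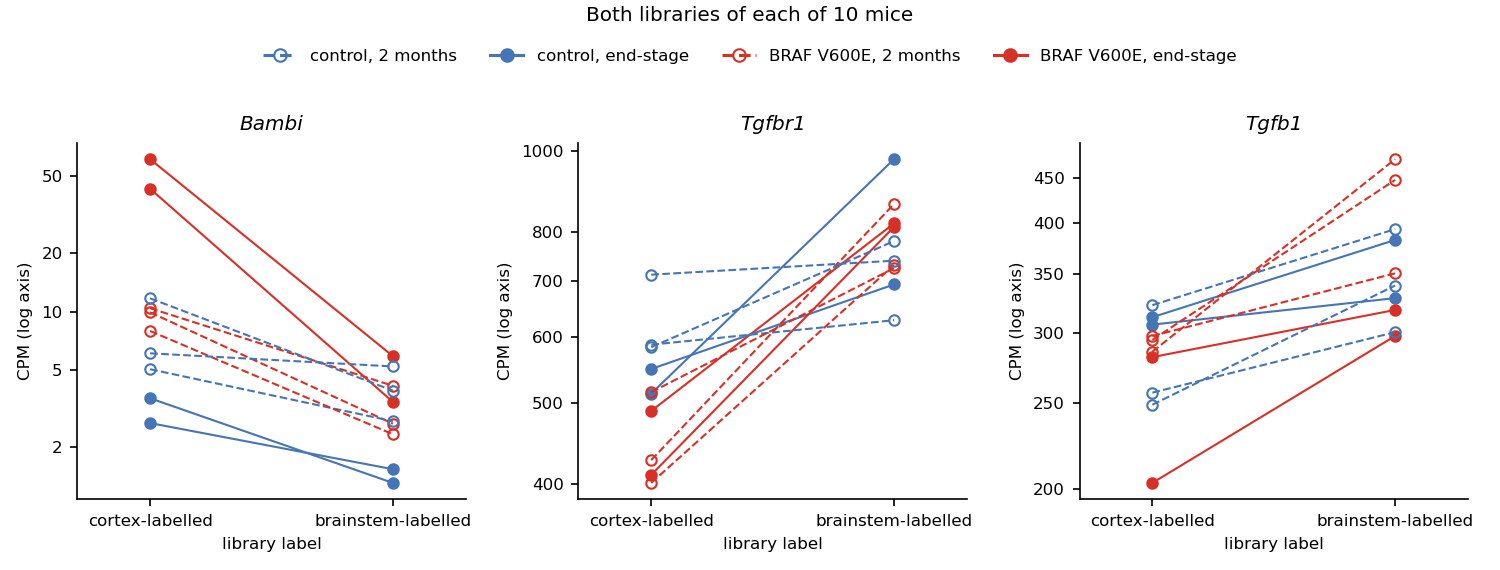
CPM (y axis, log scale) of Bambi, Tgfbr1 and Tgfb1 in the cortex-labelled and brainstem-labelled library of each of 10 mice, joined by a line. All 10 lines fall for Bambi and rise for Tgfbr1 and Tgfb1.

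The promoters of Tgfb1 and Tgfbr1 are shown because the ligand and its receptor were both higher in the brainstem-labelled library of every mouse. Each is the 250 bases upstream of the gene's start, from RefSeq on GRCm38.p6, plus strand, at chr7:25686752-25687001 and chr4:47352972-47353221, outside the transcript. Capitals mark GGCGC or its reverse complement GCGCC, a GC-rich motif that SMAD3 and SMAD4 can bind. Matches in the Tgfbr1 promoter number 3, of which 2 overlap on opposite strands, and the Tgfb1 promoter has 1.
Tgfb1: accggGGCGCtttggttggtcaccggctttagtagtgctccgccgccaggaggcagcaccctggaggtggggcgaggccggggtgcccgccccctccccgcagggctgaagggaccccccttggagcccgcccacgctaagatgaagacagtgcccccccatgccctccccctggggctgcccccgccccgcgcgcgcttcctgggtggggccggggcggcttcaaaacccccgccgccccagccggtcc
Tgfbr1: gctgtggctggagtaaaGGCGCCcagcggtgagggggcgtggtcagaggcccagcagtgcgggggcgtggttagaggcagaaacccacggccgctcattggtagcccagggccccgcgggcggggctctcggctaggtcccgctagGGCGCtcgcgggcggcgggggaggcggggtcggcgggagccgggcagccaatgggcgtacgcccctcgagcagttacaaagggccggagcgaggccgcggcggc
Of 32851 promoter windows of the same length 32.0% hold this motif on either strand. Neither promoter holds CAGAC or its reverse complement GTCTG, the SMAD box, which 42.2% of the windows hold, nor the AP-1 letters TGACTCA or TGAGTCA, which 4.46% hold. Among the other promoters read the same way, Ski held 7 matches to the GC-rich motif, Tgfbr2 and Nrros 1 SMAD box each, and Smad3 none of the 3 motifs.

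Likeness of pattern was measured as Pearson's r of log2 CPM over the 20 libraries of 10 mice, which share batch and depth differences. Group means were not removed, so r also carries differences between groups. Bambi's highest values were in the 2 end-stage cortex-labelled mutants (43.1 and 61.3 CPM), where Id2 and Dusp1 were also above the controls. The genes nearest to Bambi were Id2 (0.908), an inhibitor of DNA binding induced by BMP signals, the chemokine receptor Cxcr4 (0.903) and the phosphatase Dusp1 (0.893). Those nearest to Tgfbr1 were Mxi1 (0.914), Gnpda2 (0.894) and Hlf (0.878), and to Tgfbr2 Pnpla7 (0.937), Susd6 (0.92) and Mvp (0.915). Nearest to Tgfb1 were Klhl36 (0.903), Ccdc97 (0.9) and Phc2 (0.876). Nearest to Nrros were Actg1 (0.88), Ap1m1 (0.872) and Tmx2 (0.871). For Smad3 they were Tgfbrap1 (0.842), whose product binds TGF-beta receptors and SMAD4, Slc7a8 (0.828) and Trpm4 (0.796). Smad2 was nearest to Herpud2 (0.816), Smad7 to Mgat5 (0.842), Ski to Ttc28 (0.801) and Skil to Dock8 (0.739). Among the members themselves r ran from -0.77 (Bambi with Smad3) to 0.62 (Tgfb1 with Ski).

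The rest of the pathway was read in 4 lists. In the end-stage cortex-labelled comparison none of the 13 tested ligands, latency proteins and activators passed in edgeR. Of these 9 had an unadjusted p under 0.05, where 2951 of all 16595 genes did, and DESeq2 and limma-voom each called 2. Of the 8 other family receptors 1 fell, Eng, the co-receptor endoglin, from 174 ± 28.5 CPM in the controls to 77.9 ± 36.6 CPM in the mutants (adjusted p = 0.0192; values of lists are means ± SD, n = 2 each). Of the 25 other SMADs and regulators 3 fell and none rose, where 4.01% of all genes were called. Pmepa1 and Ldlrad4 encode related membrane proteins that hold SMAD2 and SMAD3 away from the receptor. Pmepa1 was at 276 ± 78.4 CPM against 650 ± 42.8 CPM (log2 -1.24 ± 0.33, adjusted p = 0.0423), and Ldlrad4 at 41.4 ± 9.19 against 77.4 ± 4.53 CPM (-0.9 ± 0.24, adjusted p = 0.0431). The co-repressor Tgif2 was at 1.68 ± 1.09 against 5.24 ± 1.12 CPM (adjusted p = 0.0492). Bambi, which also curbs the receptor, thus rose in libraries in which these 2 inhibitors fell. With the end-stage libraries alone the regulators' count was 1 and the receptors' 0, as it was without the 4 mice of conflicting genotype. With the record's genotypes it was 0 of 25 and 0 of 8.

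Of 14 tested genes widely induced by TGF-beta or BMP 3 rose there and none fell. Tgfbi, a secreted matrix protein named for this induction, was at 271 ± 37.3 CPM against 63.6 ± 9.58 CPM (2.09 ± 0.26, adjusted p = 0.000199). Id2 was at 129 ± 23.5 against 46.2 ± 2.0 CPM (1.48 ± 0.3, adjusted p = 0.00981). Fn1, fibronectin, was at 487 ± 532 CPM against 0.684 ± 0.968 CPM (adjusted p = 0.00133), with mutant libraries far apart. The median log2 difference of this list was 0.64, that of the regulators 0.07, of the receptors -0.24 and of the ligands and activators 1.9, against 0.02 for all genes. At 2 months in cortex-labelled libraries the activator Thbs1, thrombospondin-1, rose from 5.43 ± 3.73 CPM to 26.2 ± 9.38 CPM (adjusted p = 0.0493; n = 3 each) and the integrin subunit Itgav fell (78.8 ± 9.4 against 119 ± 8.23 CPM, adjusted p = 0.0357). Smad5, a transducer of BMP signals, fell to 15.9 ± 4.48 CPM in the mutants from 30.3 ± 2.33 CPM (adjusted p = 0.0183). Cdkn1a, Fn1 and Id1 were the 3 of 14 response genes that rose, Cdkn1a from 30.4 ± 10.7 to 91.8 ± 18.3 CPM (adjusted p = 0.00929). With the record's genotypes, and without the 4 mice of conflicting genotype, none of these 2-month calls remained. In the brainstem-labelled libraries none of the 60 tested genes of the 4 lists passed at either stage in edgeR. At an unadjusted p under 0.05 there were 6 at end-stage and 6 at 2 months, DESeq2 called 1 and 2, and limma-voom 0 and 0. Of all 16595 genes 1731 and 1461 had such a p, and edgeR called 0.151% and 0.0362%.

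Genes known to depend on TGF-beta signalling in microglia fell in part. Of 17 homeostatic genes 7 fell in the end-stage cortex-labelled mutants, where 4.01% of all genes were called, and 4 fell at 2 months, where 5.45% were. P2ry12, a purinergic receptor, was at 1490 ± 627 CPM against 3870 ± 33.1 CPM at end-stage (adjusted p = 0.00448), and P2ry13 at 963 ± 27.2 against 2530 ± 3.65 CPM (adjusted p = 0.000269). Tmem119, P2ry12, Sall1, Csf1r and Fcrls of this list are also the microglial markers given above. Of 10 genes known to be higher in microglia without the signal 7 rose at end-stage and 5 at 2 months, and none fell. Among them Axl, a receptor kinase that helps phagocytes take up dying cells, was at 1600 ± 730 against 42.3 ± 34.5 CPM at end-stage (adjusted p = 0.00908) and 781 ± 116 against 27.3 ± 14 CPM at 2 months (adjusted p = 0.00269). With the end-stage libraries alone the end-stage counts were 3 fallen of 17, and 4 risen of 10. With the record's genotypes they were 2 of 17 and 2 of 10, and without the 4 mice of conflicting genotype 5 and 4. None of the 2-month calls of these lists remained under either of the latter settings. In brainstem-labelled libraries the main edgeR model called 0 of 17 and 0 of 10 at both stages. With the end-stage libraries alone edgeR called 1 of the 17 there, as lower, and 0 of the 10. The main model called 0.151% of all genes there at end-stage and 0.0362% at 2 months. Of all 16595 genes 1731 and 1461 had an unadjusted p under 0.05 in it. At end-stage 6 of the 17 and 8 of the 10 had an unadjusted p under 0.05 there, DESeq2 called 4 and 5, and limma-voom 0 and 1. At 2 months 1 and 5 had such a p, DESeq2 called 0 and 1, and limma-voom 0 and 0. These 6 lists were chosen with earlier results of these data known and are no independent evidence of a direction, and a gene of the last list, Ms4a7, is also a border macrophage marker.

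The same lists also differed between the labels in the mutants, a comparison in which 10.4% of all genes were called. Of the 25 regulators 4 were higher in brainstem-labelled libraries and 1 lower, all named after their values were seen: Tgif2 (1.4), Pmepa1 (0.89), Smad5 (0.73) and Smad1 (0.54) against Nedd4l (-0.66; log2, adjusted p = 0.00263 to 0.0343). The response genes Fn1, Cdkn1a, Tgfbi and Id2 were lower there (-3.76, -1.84, -1.02 and -0.96). Of the 17 homeostatic genes 9 were higher, and of the 10 genes raised without the signal 8 were lower.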

How the data were processed

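Gene counts for 20 libraries were deposited by the authors as whole-number counts per Ensembl gene, not normalised. Per the labels' protocols, RNA was amplified with SMART-Seq v4 and sequenced as paired reads. Per the submitters' processing notes, FastQC, Subread, edgeR and mm10 were used, with no roles or versions. Whether counting used strand is not given in the sources used here. Of 55487 identifiers 55394 matched GENCODE M21, which gave symbols, exon lengths and positions. No member's exons overlap those of another gene.

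Genes were kept by filterByExpr (16595 genes) and scaled by TMM in edgeR 4.0.16 (R 4.3.3). A quasi-likelihood model over 8 groups gave 14 comparisons, Benjamini-Hochberg adjusted over all genes tested, with a threshold of 0.05. CPM values are TMM-scaled. Log2 CPM for likeness of pattern used a prior count of 2. The code was tested on simulated data. The 10 genes and all lists were chosen with earlier results of these data known. The list of homeostatic genes is given without 2 genes, and the microglial markers without 1, which are not reported here; their counts and sums leave them out. Genes of the other lists were named where they passed a genotype comparison, at most 4 per list and comparison by p. Alternatives were the record's genotypes, DESeq2 size factors, no filter, DESeq2 1.42.0, limma-voom (3.58.1), only the groups compared, the mouse as a block and leaving out each mouse. End-stage libraries alone, and the set without the 4 mice of conflicting genotype, were chosen after seeing the data. Mouse numbers pair the libraries because both come from one animal. Deviations of the 2 libraries from their group means had r from 0.101 to 0.265, but the 2 mice of an end-stage group mirror each other and give 1 value per group.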

Additional observations from a re-analysis of the deposited data

Results flagged for a closer look

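Bambi's genotype difference in cortex-labelled libraries differed between stages. The test of genotype by stage gave 3.76 on the log2 scale, end-stage minus 2 months, from 4.06 at end-stage and 0.3 at 2 months. The mutants were above the controls in 2 of 2 mice at end-stage, and the groups overlapped at 2 months.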

How the results depend on the processing

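The number of members that passed was the same as reported in most alternatives. Without a filter on low counts it was 2 in place of 1 in 3 cortex-labelled comparisons (genotype at end-stage, genotype by stage, and stage in mutants), with Nrros added. It was 1 in place of 0 for genotype in end-stage brainstem-labelled libraries, stage in brainstem-labelled mutants and region in controls. DESeq2 called 1 for genotype in end-stage brainstem-labelled libraries, 2 for genotype in 2-month cortex-labelled libraries and 2 for region in controls, in place of 0 in each. The record's genotypes gave 2 for region in controls. The mouse as a replicate block gave 1 there and changed no other count of members by over 1.5 times. Without the 4 mice of conflicting genotype the counts were 0 for genotype by stage and 0 for stage in mutants, both cortex-labelled, and 1 in place of 3 for region in mutants. Leaving out single mice gave 0 to 1 for genotype in 2-month cortex-labelled libraries and 0 to 1 for genotype by stage in cortex-labelled ones. The cause of these changes was not tested, and leaving out mice changes both their number and which ones remain. No called value changed sign. Over all genes the counts moved more, for example 171 to 1282 for genotype in end-stage cortex-labelled libraries. Bambi's lowest library has 25 counts, which limits its precision in controls.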
